A study of Mus musculus with 24 samples.

Results

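Kidneys of wild-type C57BL/6 mice given saline, sequenced as 6 libraries, form the baseline of a study of calcium oxalate deposits. They are described here by themselves, with no contrast to another group. The members are the 6 libraries whose sample titles name the wild-type control group, of 24 libraries in the study, and the 28450 features measured in them. The study as a whole had 4 groups of 6 libraries: wild type or knocked out for Nlrp3 (NLPR3-/- in the labels), each given saline or glyoxylate. In the group described here the genotype was wild type and no transgene or Cre was named. Each mouse received 200 μl of saline per injection into the peritoneum on days 1 to 7, after which it was killed for its kidneys. The labels name the tissue as kidney and give no age, sex or kidney zone, and nothing in them states that each library came from a different mouse. Spreads therefore measure the variation between these 6 samples, which may in part be technical.

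Each nephron, the working unit of the kidney, begins at the glomerulus, where podocytes wrap the filtering capillaries. The proximal tubule then takes back most of the filtered sugar, amino acids, phosphate and salt, burns fatty acids in its many mitochondria and makes glucose. The thick ascending limb reabsorbs salt without water and dilutes the urine, and the distal convoluted and connecting tubules adjust sodium and calcium. In the collecting duct, principal cells carry water and sodium through hormone-controlled channels, and intercalated cells move acid and base. In mice the proximal tubule is also a target of androgens, which set the level of several of its abundant transcripts.

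The unit is FPKM, a fragment count scaled to transcript length and to the mapped fragments of the library, which lets genes be ranked within a library. Because the sum of FPKM varied from 474413 to 529091 per library, a gene or list is also given as its share of that sum. The sequencing depth behind the values is unknown. Correlations of log2(FPKM + 1) over the 11868 features averaging at least 1 FPKM lay between 0.980 and 0.990 for the library pairs. No 2 libraries held identical values. Of the 28450 features, 6130 were listed at 0 in all 6 libraries and 11157 reached 1 FPKM in all of them. Protein-coding genes held 96.8% of all FPKM, and they were 21914 of the 22036 features with an Ensembl ID. That share reflects which genes were listed and does not describe the RNA classes of the kidney. The 6414 gene models that the authors added, which carry no gene name, held 3.20% ± 0.432 (SD, n = 6). Every list of nephron segment markers had members averaging at least 1 FPKM. Of the genes of largest spread, most of those for liver plasma proteins were highest in libraries 2 and 3, fat cell markers were highest in library 4, and globin levels differed between libraries. These values are given below, and no library was left out.

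A few transcripts dominated the kidney. The most abundant feature alone held 5.33% ± 0.544 of FPKM (SD, n = 6), the top 10 held 29.2% ± 2.09 and the top 100 held 51.7% ± 2.40. On the means, 80 features made up 50% of FPKM and 3535 features made up 90%. Only 36 features averaged 1000 FPKM or more, among them 13 mitochondrially encoded genes and 3 of the unnamed added models. The highest of those models, Mus_musculus_newGene_2396, averaged 7227 FPKM and ran from 5035 to 11202.

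The 13 protein genes of the mitochondrial genome, which encode subunits of the respiratory chain and of ATP synthase, held 29.6% ± 2.84 of FPKM. Their share was 34.3% in library 1 and 31.3% in library 5, and was lower in the other 4, down to 26.9% in library 6. mt-Co1, a cytochrome oxidase subunit, ranked first and ran from 22961 FPKM in library 4 through a median of 24921 to 33028 in library 1. mt-Nd6, the 1 protein gene on the other strand of that genome, was at 8769 FPKM in library 1 and between 5950.1 and 6688 in the other 5. Library 1 was the highest for 12 of the 13 genes, whereas it was the highest for 12.6% of all 11868 features averaging at least 1 FPKM. The exception was mt-Nd3, highest in library 3 at 2263 FPKM. A larger mitochondrial share leaves less for every other gene on a scale that sums to a whole, so nuclear shares were also taken without these genes.

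Kap, the kidney androgen-regulated protein of the proximal tubule, was the most abundant nuclear gene and second of all features. Its 6 values ran from 17483 FPKM in library 5 through a median of 21047 to 22059 in library 4, a mean of 20598 ± 1731 (SD, n = 6). The 5 libraries other than library 5 lay between 19943 and 22059. The 120 bases before its RefSeq start (chr6:133853668-133853787, minus strand, GRCm38.p6) are shown because no other nuclear transcript was as abundant, with the letters TATAA in capitals.
Kap: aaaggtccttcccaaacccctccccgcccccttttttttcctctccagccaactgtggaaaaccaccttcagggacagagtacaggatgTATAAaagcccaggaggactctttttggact

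Gpx3, the plasma glutathione peroxidase that kidney tubules secrete, came next among nuclear genes. It ran from 8853 FPKM in library 3 through a median of 9981 to 10985 in library 6. Fth1 and Ftl1, the ferritin chains that store iron, averaged 4117 ± 264 and 2008 ± 194 FPKM (SD, n = 6). Eef1a1, a translation elongation factor, averaged 2258 ± 80.5 FPKM. Behind them stood Fxyd2, the gamma subunit of the sodium pump (1759 ± 124), Cyp4b1, a cytochrome P450 (1616 ± 179), Umod, the uromodulin of the thick ascending limb (1594 ± 173), and Slc27a2, a fatty acid transport protein (1433 ± 90.6).

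Proximal tubule functions filled most of the remaining places among the 30 highest nuclear genes, which together held 14.0% ± 0.601 of FPKM. They included Pck1, the rate-limiting enzyme of glucose synthesis, Slc34a1, the main phosphate transporter, Ass1 of arginine synthesis and Miox, the inositol oxygenase. Means were 1373 ± 191 FPKM for Pck1, 1365 ± 177 for Slc34a1, 1173 ± 135 for Ass1 and 1039.6 ± 74.8 for Miox. The order within this range is not fixed by the data: from Slc27a2 to Slc34a1 the means of 5 named genes lay between 1365 and 1433 FPKM, closer together than the SD of any of them. Klk1, a kallikrein of the connecting tubule, was among those 5 at 1383 ± 167.

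**Figure D1:**
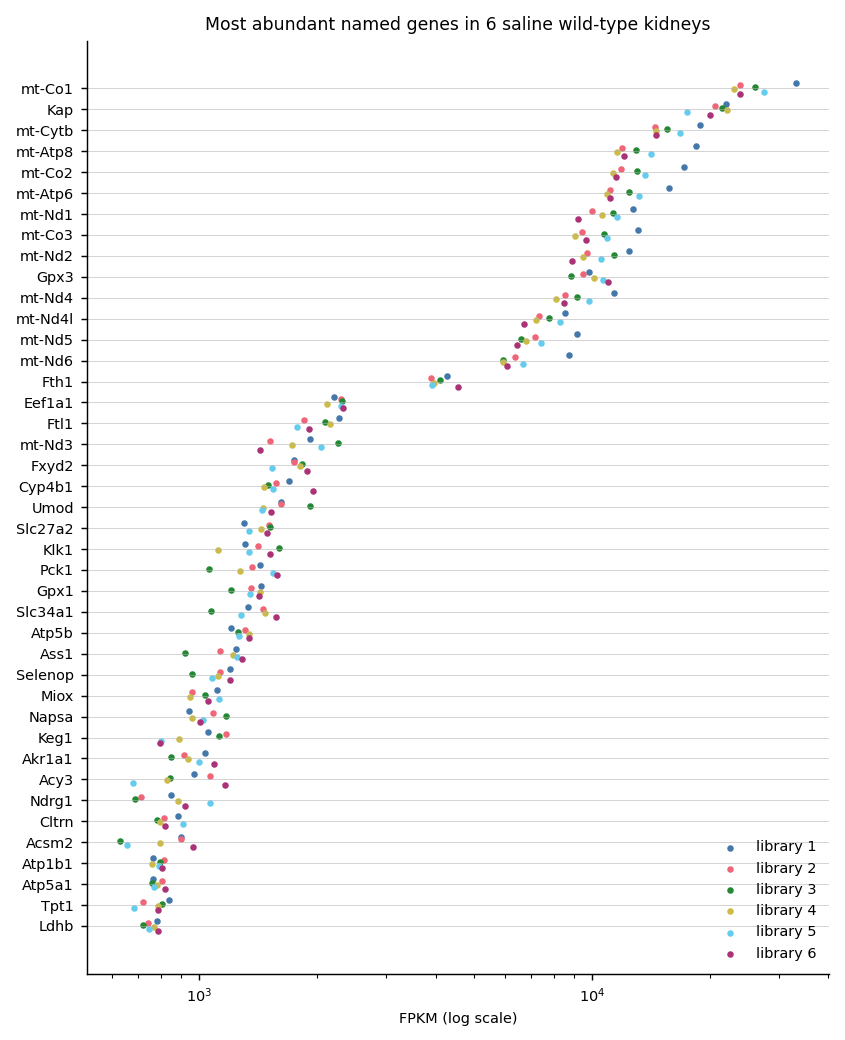
FPKM in each of the 6 saline wild-type kidney libraries (points, log scale) for the 13 mitochondrially encoded genes and the most abundant named nuclear genes, ordered by mean. Library 1 lies to the right for 12 of the 13 mitochondrial genes, with mt-Co1 at 33028 FPKM, while Kap spans 17483 to 22059 FPKM.

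Marker lists for the nephron segments differed in their summed share by orders of magnitude. The 42 proximal tubule genes, all averaging at least 1 FPKM, held 6.77% ± 0.459 of FPKM (SD, n = 6). Kap made up 62.1% of that sum, and the other 41 genes held 2.57%. Without mitochondrially encoded genes in the total, the list held 9.62% ± 0.468. The 14 thick ascending limb genes held 0.509% ± 0.0521, of which Umod was 63.9%. Connecting tubule markers held 0.401% ± 0.0465, mostly Klk1 (70.6%). The lists for principal cells, intercalated cells and the distal convoluted tubule lay close together at 0.0637% ± 0.00854, 0.0612% ± 0.00558 and 0.0582% ± 0.00753, and their library values overlapped. In bulk tissue, fewer cells of a type and less RNA per cell cannot be told apart, and lists of unlike length and top genes do not measure cell numbers.

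Proximal tubule markers included receptors, a water channel and carriers. The endocytic receptors Lrp2 (megalin) and Cubn (cubilin) ran from 92.9 to 123 FPKM, median 104, and from 33.5 to 43.3, median 40.4. Aqp1, the water channel of proximal tubule and thin limb, ran from 302 to 386 FPKM, median 349. Slc22a6, an organic anion carrier, was lowest in library 5 at 144 FPKM, had a median of 220.3 and was highest in library 6 at 249. Slc22a12, the urate carrier, was likewise lowest in library 5 at 401 FPKM, and its other values ran from 551 to 671.

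Farther along the nephron, each segment showed its own carrier. Slc12a1, the furosemide-sensitive cotransporter of the thick ascending limb, ran from 190.1 FPKM in library 4 through a median of 217 to 251 in library 3. Egf, the growth factor precursor of the thick limb and early distal tubule, ran from 364 to 479 FPKM, median 418. Slc12a3, the thiazide-sensitive cotransporter of the distal convoluted tubule, split into low values in libraries 2 (118) and 4 (115) and values of 161 to 170.1 in the others. S100g, an intracellular calcium carrier of the connecting tubule, was between 402 and 565 FPKM, median 473. Calb1, which has the same task, was 107 and 99.2 FPKM in libraries 3 and 5 and 72.4 to 75.7 in the rest.

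Collecting duct genes followed. Aqp2, the vasopressin-regulated water channel of principal cells, was 156 to 168 FPKM in libraries 2, 3 and 4 and 101 to 112 in libraries 1, 5 and 6, so its values fell into separate ranges. Aqp3, the water channel on the other side of the same cells, did not share that split and ran from 43.7 to 58.7 FPKM, median 54.0. In intercalated cells, the proton pump subunit Atp6v1b1 ran from 35.3 to 46.5 FPKM, median 40.9, and Slc26a4 (pendrin) from 16.1 to 24.3, median 18.1. Library 6 was highest for 11 of the 16 intercalated cell genes, beside 18.8% of the 11868 features averaging 1 FPKM.

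Most lists for cells outside the tubule gave small shares, while the erythroid list, described below, held 0.306% ± 0.180 of FPKM. Podocyte genes held 0.0150% ± 0.00174 of FPKM. Podxl, the sialoprotein that coats podocyte processes and also endothelium, ran from 19.3 FPKM through a median of 23.9 to 26.1. Of the 11 podocyte genes at 1 FPKM or more, 8 were lowest in library 5, beside 15.3% of all features averaging 1 FPKM. The endothelial list held 0.0289% ± 0.00247, with Pecam1 between 9.84 and 11.7 FPKM. Ren1, the renin of the juxtaglomerular cells, was 23.4 FPKM in library 5 and 43.7 in library 1, median 31.9. Markers of macrophages held 0.00982% ± 0.00198, and 5 of the 8 at 1 FPKM or more were highest in library 3, beside 15.6% of all such features. The lists for T and NK cells, adrenal gland, pancreas and skeletal muscle had no member averaging 1 FPKM.

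**Figure D2:**
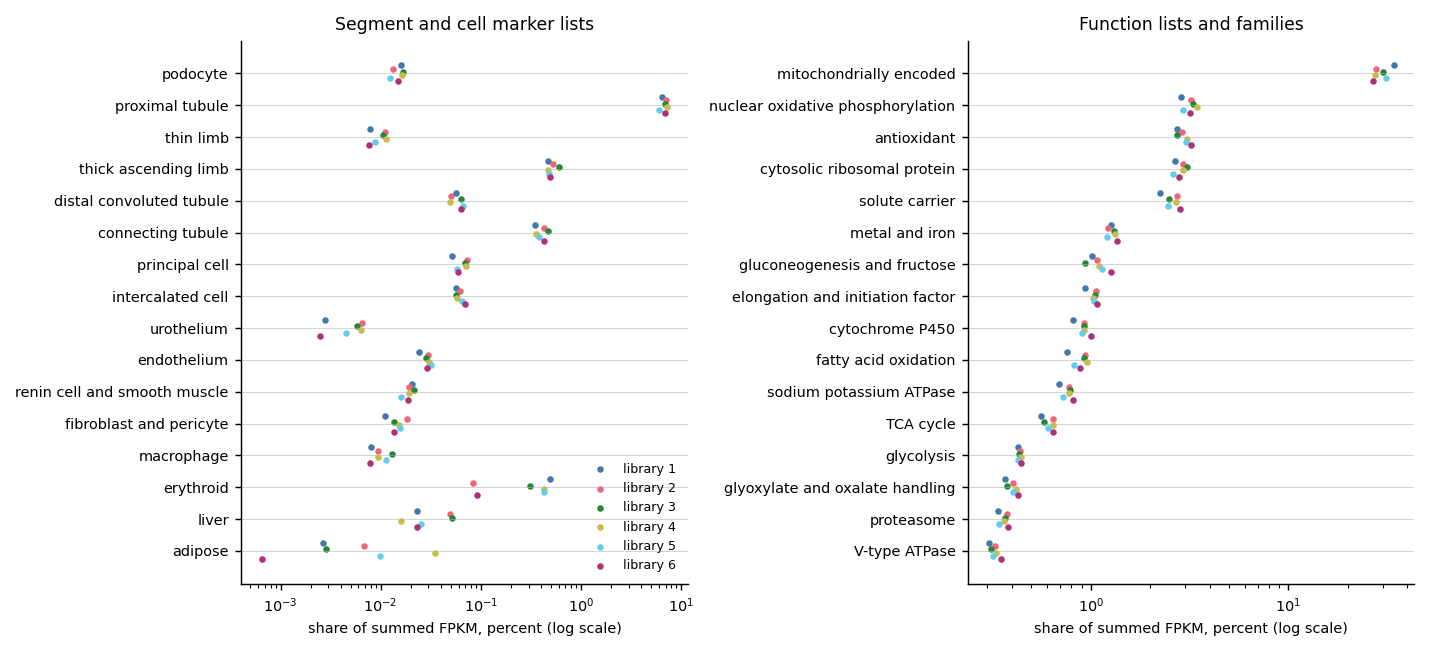
Share of summed FPKM in each of the 6 libraries (points, percent, log scale) for lists of segment and cell markers (left) and for lists of function (right). Most lists vary little, as for the proximal tubule at 6.77% ± 0.459, while the erythroid, liver and adipose lists at lower left spread widely.

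By function, energy metabolism and defence against peroxides led the nuclear genes. The 81 nuclear-encoded subunits of oxidative phosphorylation held 3.16% ± 0.217 of FPKM (SD, n = 6), led by Atp5b of ATP synthase at 1286 ± 53.0 FPKM. Antioxidant genes held 2.94% ± 0.195, of which Gpx3 was 69.4%. Cytosolic ribosomal proteins held 2.83% ± 0.172 over 85 genes, of which the top member, Rplp0, made up 3.05%. Fatty acid oxidation held 0.882% ± 0.0761 and the TCA cycle 0.616% ± 0.0366. Glucose synthesis and fructose use held 1.09% ± 0.112 and glycolysis 0.437% ± 0.00807. These lists differ in length and in the part held by their top gene, so their shares do not compare the pathways. The solute carriers, the family of membrane transporters that includes most kidney uptake systems, held 2.58% ± 0.216, and 252 of 375 averaged at least 1 FPKM. The sodium pump family held 0.762% ± 0.0464, with its beta subunit Atp1b1 at 787 ± 22.4 FPKM.

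Since the study gives glyoxylate, the genes that make or clear it are of interest at baseline. Lactate dehydrogenase can turn glyoxylate into oxalate, and its subunit genes were the most abundant of the list: Ldhb ran from 719.9 to 785 FPKM, median 756, and Ldha from 332 to 411, median 366. Grhpr, which reduces glyoxylate to glycolate, ran from 105 to 127 FPKM, median 117. Hoga1, which splits glyoxylate from hydroxyproline breakdown, was 63.0 FPKM in library 3, 110.5 in library 6 and between 85.1 and 89.0 in the other 4.

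The peroxisomal enzymes named for the liver pathway were nearly absent. Agxt, the aminotransferase that detoxifies glyoxylate in liver, did not exceed 0.255 FPKM, and Hao1, the liver glycolate oxidase, did not exceed 0.567. Both were listed at 0 in library 1 and highest in library 2. The relative Hao2, a kidney hydroxyacid oxidase, ran from 84.8 through 103 to 166 FPKM, and Agxt2, the mitochondrial aminotransferase, from 29.1 through 37.9 to 41.4. Of the sulfate and anion exchangers that can carry oxalate, Slc26a1 led, at 19.2 to 30.4 FPKM, median 27.2. Slc26a6 was 1.16 FPKM in library 3 and 2.55 to 4.05 in the others. Of the 13 members at 1 FPKM or more, 9 were lowest in library 3, which was lowest for 23.4% of all such features.

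Nlrp3, the inflammasome sensor deleted in the other genotype of the study, was measured at a very low level, ranking 17859 of the 28450 features by mean. Its values ran from 0.0397 FPKM in library 1 through a median of 0.0705 to 0.0886 in library 2. Only 5 of the 17 genes listed for the inflammasome and IL-1 averaged 1 FPKM. Nlrp6, a sensor of the same family, ran from 15.8 to 24.8 FPKM, median 20.5, and Nek7, a kinase that binds Nlrp3, from 15.5 to 19.6, median 18.1. The adaptor Pycard was at 1.21 to 1.75 FPKM, the protease Casp1 at 0.230 to 0.383 and the cytokine Il1b at 0.140 to 0.585. Injury markers were low or uneven: Havcr1 (KIM-1) was 1.55 FPKM in library 3 and 0.418 to 0.796 in the others. Lcn2 (NGAL) was 1.02 in library 6 and 2.32 to 5.40 in the rest. Spp1 (osteopontin), which tubules make without injury, was 342 FPKM in library 6 and 406 to 447 in the other 5.

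The labels give no sex, and all 6 libraries expressed the Y-linked genes Ddx3y (8.86 to 10.8 FPKM), Eif2s3y (11.5 to 19.0), Uty (4.28 to 5.63) and Kdm5d (1.91 to 2.64). The list of male-biased kidney genes held 4.96% ± 0.399 of FPKM, 84.8% of it Kap. Library 5 was lowest for 6 of its 12 members, beside 15.3% of all features averaging 1 FPKM. Among the 6 was Odc1, an androgen-responsive enzyme of polyamine synthesis, at 177 FPKM against 265 to 387 in the others.

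Spread among the 6 libraries was small for most genes. Over the 7452 features averaging at least 5 FPKM, the median SD of log2(FPKM + 1) was 0.110, with quartiles of 0.0808 and 0.153, and the median coefficient of variation of FPKM was 8.20%. Because spread depends on level, each SD was divided by the median SD of the 200 features nearest in mean. Of the 7452 features, 725 (9.73%) had an SD at least 2 times that of like mean, a limit set with the values known. A second measure asked whether 1 library stood apart: the gap between the highest or lowest value and its neighbour, as a share of the whole range, above Dixon's limit for 6 values. That held for 724 of 11868 features averaging at least 1 FPKM (6.1%), and chance gives about 1 in 20. Libraries 3 and 1 were the one apart most often, for 188 and 171 features, and were the low one in 133 and 140 of these.

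Lists differed in their spread. The median SD was 0.07 in the TCA cycle list, 0.08 in the proteasome and 0.09 in nuclear oxidative phosphorylation, against 0.110 over all features. None of 18 TCA cycle genes and none of 43 proteasome genes at 5 FPKM or more had an SD at least 2 times that of like mean, and 5 of 80 did in oxidative phosphorylation, beside 9.73% of all features. Cytosolic ribosomal proteins were like the whole table, with a median SD of 0.11 and 10 of 82 past the limit, and histones were wider, with 0.21 and 9 of 17. Proximal tubule markers varied more: 22 of 42 passed that limit and their median SD was 0.22. For cytochrome P450 genes it was 14 of 25, for solute carriers 49 of 200 and for immediate early genes 6 of 9. None of the 10 thick ascending limb markers passed, and their median SD was 0.14.

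The 15 named genes with the smallest SD for their level had SDs of 0.01 to 0.03 and coefficients of variation of 0.854% to 2.38%. Drg1, a GTP-binding protein of translation, was 22.4 FPKM in library 3 and 22.9 in each of the other 5. Ccni, an atypical cyclin, was 93.7 FPKM in library 4 and 95.2 to 96.1 in the others. Others were Ap3d1 and Ap3s2, subunits of an adaptor complex, Arl8b, which moves lysosomes, Rab1a, Stx7, Npc2 of cholesterol export and Map1lc3b of autophagy. The rest were Etfa, the electron transfer flavoprotein of fatty acid oxidation, Adss, Mob1a, Ciz1, Cnpy2 and Eef1akmt2. Map1lc3b ran from 52.4 to 53.9 FPKM and Etfa from 235.8 to 243. The values that chose these genes are their spread itself, and the next gene outside the limit had a ratio of 0.237, the same to 3 digits as the last inside.

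**Figure D3:**
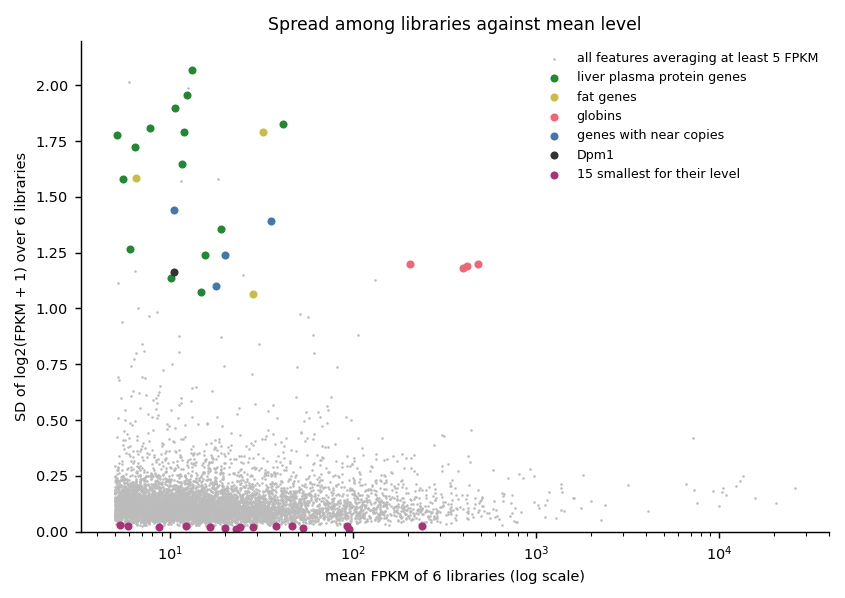
SD of log2(FPKM + 1) over the 6 libraries against mean FPKM (log scale) for the 7452 features averaging at least 5 FPKM (grey), with the 27 named genes of largest spread coloured by kind and the 15 of smallest spread for their level in purple. The bulk lies near the median SD of 0.110, and the liver plasma protein genes reach the highest SD, 2.07.

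At the other end, 27 named genes were among the 25 with the largest SD or the 25 with the largest SD for their level, and 23 were in both lists. Their products sort into few kinds, a grouping made after the values were seen. There were 15 plasma or other proteins made mainly by liver, 4 globin chains and 3 fat genes. Another 4 genes were taken to have a near copy or a second entry, without comparing sequences, and Dpm1 remained. The smallest SD of the first list was 1.10 and the next outside it 1.08, so the limit cuts a continuous range. These genes were chosen by their spread over the same values, so the counts by library below describe them and test nothing.

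The liver genes moved together across libraries. All 15 were lowest in library 6, 14 were highest in library 3, and libraries 2 and 3 were the top pair for 14. Of all features averaging 1 FPKM, 10.8% were lowest in library 6 and 15.6% highest in library 3. That share is no test of genes chosen by spread, and some, such as Mup7, averaged 5 FPKM only through libraries 2 and 3. The median gene stood at 6.65 times its own median over libraries in library 3, 3.98 times in library 2 and 0.0575 times in library 6. Alb, serum albumin, was 18.0, 94.9, 108, 14.3, 10.8 and 3.14 FPKM in libraries 1 to 6. Mup7, a major urinary protein that liver secretes and urine carries, was 17.4 and 54.0 FPKM in libraries 2 and 3, at most 3.68 in libraries 1, 4 and 5 and listed at 0 in library 6. Apoa1, the main protein of high-density lipoprotein, was 4.20, 25.1, 33.2, 4.47, 1.93 and 1.15 FPKM in libraries 1 to 6. The others were Apoa2, Ahsg, Hp, Hpx, Rbp4, Trf, Fabp1, Serpina1e, Serpina3k, Mup3, Mup14 and Mup20. Members of the major urinary protein and Serpina families are nearly identical in sequence, and single values for them are uncertain.

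The 7-gene liver marker list, which shares Alb and Apoa2 with the genes above, did not move as 1 block. Of its 6 members averaging 1 FPKM, 4 were highest in library 3 and 3 were lowest in library 6. The list's share ran from 0.0160% in library 4 to 0.0521% in library 3. Ttr, transthyretin, was 41.9% of the sum and went another way: 28.8 FPKM in library 4 and 59.8 to 76.1 in the others. Apob was 11.7 to 22.5 FPKM, highest in library 5. Fgb, a fibrinogen chain, followed Alb at 4.02 and 4.97 FPKM in libraries 2 and 3 and at most 0.987 elsewhere. Whether liver RNA entered some samples was not tested.

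Promoters are shown for Alb, the highest of this group by mean, and for Mup3 of the major urinary protein family, because the group varied in step across libraries. Windows are the 120 bases before the RefSeq start in GRCm38.p6: chr5:90460750-90460869 (plus strand) for Alb and chr4:62087318-62087437 (minus strand) for Mup3. Capitals mark matches on either strand to letters known from gene starts. They are the CCAAT box and the core of the TATA box, with the letters TATAA. They are also the box of erythroid promoters with the letters CACCC, and an HNF1 motif with the letters GTTAAT.
Alb: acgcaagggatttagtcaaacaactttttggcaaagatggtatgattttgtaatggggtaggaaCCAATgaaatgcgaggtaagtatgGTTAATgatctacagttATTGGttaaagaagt
Mup3: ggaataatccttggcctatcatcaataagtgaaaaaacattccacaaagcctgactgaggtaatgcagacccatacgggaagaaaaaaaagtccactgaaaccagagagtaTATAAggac

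GTTAAT was found 32 bases before the start of Alb. It was in 3 of the 11 promoters of the liver genes that have an entry, against 3.02% of all 27025 promoters. Of the same 11, 4 held CCAAT, 3 held TATAA and 3 held CACCC, against 22.1%, 12.4% and 31.3% of all promoters. Mup3 held TATAA as its only match, beginning 9 bases before the start, closer than in Kap, where it began 31 bases before. A match is a description of letters and does not show a bound site.

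The 4 globin genes were highest in library 1 and lowest in library 2, with library 6 next. Of all features averaging 1 FPKM, 12.6% were highest in library 1 and 5.41% lowest in library 2. Hbb-bs, an adult beta globin, was 865 FPKM in library 1, 123 in library 2, 457 in library 3, 633 in library 4, 675 in library 5 and 145 in library 6. Hbb-bt ran from 52.9 to 345 FPKM and Hba-a1 and Hba-a2, the alpha globins, from 114 to 730.0 and from 109 to 669. Alas2, the heme synthesis enzyme of red cell precursors, was 1.51 and 1.94 FPKM in libraries 2 and 6 and 6.64 to 11.4 in the others. The erythroid list of these 5 genes ranged from 0.0832% to 0.495% of FPKM, a ratio of 5.95, while endothelial markers ranged by 1.30 times. The paired globin genes are near copies, so the division of reads within a pair is uncertain. Amounts of blood were not given by the labels, and their part in these values was not tested.

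Windows for the beta globins are chr7:103827929-103828048 (Hbb-bs) and chr7:103813924-103814043 (Hbb-bt), both on the minus strand. Those for the alpha globins are chr11:32283552-32283671 (Hba-a1) and chr11:32296372-32296491 (Hba-a2), on the plus strand. The 4 genes varied in step, and capitals mark the same letters as above.
Hbb-bs: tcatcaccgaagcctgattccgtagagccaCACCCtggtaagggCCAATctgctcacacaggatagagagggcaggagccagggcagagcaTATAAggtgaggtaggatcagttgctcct
Hbb-bt: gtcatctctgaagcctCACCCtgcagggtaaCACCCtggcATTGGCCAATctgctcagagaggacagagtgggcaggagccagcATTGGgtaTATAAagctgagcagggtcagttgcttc
Hba-a1: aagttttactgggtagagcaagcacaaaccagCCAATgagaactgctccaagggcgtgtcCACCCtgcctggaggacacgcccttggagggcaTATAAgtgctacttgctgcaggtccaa
Hba-a2: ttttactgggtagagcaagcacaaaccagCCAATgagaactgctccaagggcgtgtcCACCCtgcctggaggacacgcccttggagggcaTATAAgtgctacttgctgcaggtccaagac

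All 4 windows held the letters of the CCAAT box, the erythroid box and the TATA core, which were present on either strand in 22.1%, 31.3% and 12.4% of the 27025 promoters. No matches overlapped. TATAA began 27 to 30 bases before the start in each. The Hba-a1 and Hba-a2 windows were identical over all 117 bases when shifted by 3, and those of Hbb-bs and Hbb-bt shared 88 of 119 bases (73.9%).

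The 3 fat genes peaked in library 4 and were lowest in library 6. Cfd, the adipsin of fat cells, was 7.93, 23.0, 10.5, 114, 35.8 and 2.19 FPKM in libraries 1 to 6. Ucp1, the uncoupling protein of brown fat, was 28.3 FPKM in library 4 and 0.351 to 4.55 in the others, and Car3 was 70.7 in library 4 and 7.90 to 35.3 elsewhere. The adipose list, which holds Cfd and Ucp1 but not Car3, had 5 members averaging 1 FPKM, and all 5 were highest in library 4 and lowest in library 6. Of all features averaging 1 FPKM, 10.9% were highest in library 4 and 10.8% lowest in library 6. The share of the adipose list ran from 0.000648% to 0.0350%, a ratio of 53.9. Fat lies around the kidney, and whether it was taken with the samples was not tested.

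The 4 genes taken to have a near copy or a second entry were Nnt, Hist2h2aa2, Hist1h2bg and the pseudogene Rpl10-ps3. Values of a partner were compared only for Nnt and Hist2h2aa2, and there they moved in opposite ways. Nnt, the mitochondrial transhydrogenase, appears under 2 identifiers, and whether these are separate places in the genome was not examined. ENSMUSG00000116207 was 28.1 and 43.7 FPKM in libraries 1 and 3 and 9.97 to 11.5 in the others. ENSMUSG00000025453 was 3.61 and 6.69 FPKM in libraries 1 and 3 and 23.2 to 25.3 in the others. The sum of both had a coefficient of variation of 18.6%, against 73.5% and 55.6% for the entries alone. Hist2h2aa2 was 4.01 FPKM in library 4, where its copy Hist2h2aa1 was 101, and their sum had a coefficient of variation of 10.9%. For Rps27 and its copy Rps27rt, whose values also moved in opposite ways, the sum had one of 13.2% and the single genes 42.0% and 74.4%. Such opposite values cannot be read as expression of 1 entry. Dpm1, an enzyme of protein glycosylation, was 16.2 to 18.8 FPKM in libraries 2, 4 and 5 and 2.48 to 5.95 in the rest.

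**Figure D4:**
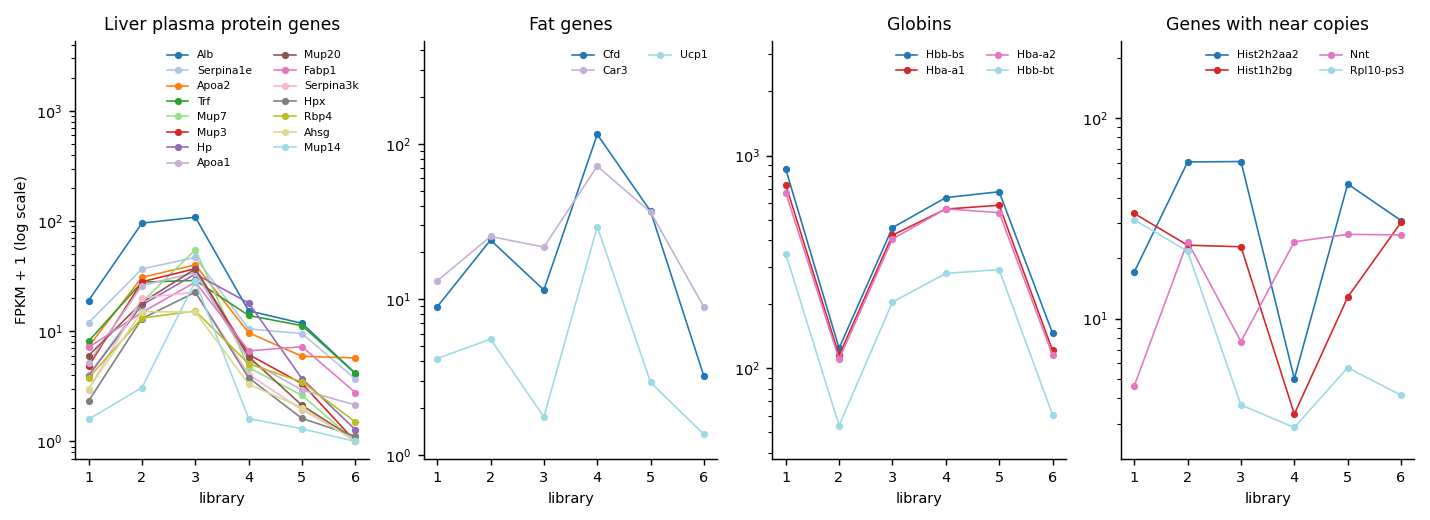
FPKM + 1 (log scale) by library for the named genes of largest spread other than Dpm1, 1 line per gene, with lines joining the values of a gene and no order among libraries. Liver genes are high in libraries 2 and 3, fat genes in library 4, and globins are low in libraries 2 and 6.

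Beyond these, a set of metabolic genes differed between libraries. Pdk4, the kinase that spares glucose in fasting, was 86.3, 108 and 94.0 FPKM in libraries 2, 3 and 4 and 41.7 to 56.8 in libraries 1, 5 and 6. Cyp4a14, a fatty acid hydroxylase, was 63.7 to 104 FPKM against 18.6 to 38.6 in the same libraries. In the list of fasting and PPAR alpha targets, libraries 2, 3 and 4 were the 3 highest for 9 of 13 genes, against 5.94% of the 11868 features averaging 1 FPKM, a pattern looked for after the values were seen. The list's share ran from 0.208% to 0.363%, and 8 of its 13 genes at 5 FPKM or more had an SD at least 2 times that of like mean.

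Urothelial genes, which mark the lining of the renal pelvis, were high in the same libraries. Psca was 17.8 to 19.5 FPKM in libraries 2, 3 and 4, 13.6 in library 5 and 5.83 and 8.43 in libraries 6 and 1. Upk3a, a uroplakin, was 2.56 to 3.26 FPKM in libraries 2, 3 and 4 and 1.48 to 2.23 in the others. Of the 5 urothelial genes at 1 FPKM or more, libraries 2, 3 and 4 were the 3 highest for 4, beside the same 5.94%. Slc14a2, the urea transporter of the inner medulla, was 12.5 to 17.6 FPKM there and 7.78 to 9.76 elsewhere. It is 1 gene of the thin limb list, most of which did not show this order. Libraries 2, 3 and 4 were the 3 highest for 2 of its 5 genes averaging 1 FPKM. For principal cell genes that held for 3 of 11. The liver genes, Aqp2 and the fasting and urothelial lists shared libraries 2 and 3 on their high side. The part that the tissue taken with each sample had in the PPAR alpha values was not tested.

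Markers of the proximal tubule segments also differed from each other in library 3. The 6 markers of the early (S1) segment were all lowest in library 3, and all 6 had an SD at least 2 times that of like mean. Slc6a19, the neutral amino acid carrier, was 35.2 FPKM in library 3 and 73.7 to 96.5 in the others. Slc5a12, a lactate carrier, was 28.9 against 47.3 to 75.5, and Slc5a2 (SGLT2), the main glucose carrier, 88.3 against 114 to 157. None of the 8 markers of the late (S3) segment was lowest in library 3, and 1 was highest there, the amino acid carrier Slc7a13 at 444 FPKM against 288 to 345. Of the other 7, 3 were highest in library 2, 3 in library 6 and 1 in library 1. A different mix of kidney zones between samples was not tested. Over all features averaging 1 FPKM, 23.4% were lowest in library 3. Low values there were not particular to S1 markers. Library 3 was lowest for 17 of the 42 proximal tubule genes, which include the S1 and S3 markers, and for 10 of 18 TCA cycle genes.

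Stress and timing genes also differed between libraries. Immediate early genes, which answer handling within minutes, had a median SD of 0.38, and 8 of 15 were highest in library 5, beside 19.5% of all features averaging 1 FPKM. Jun ran from 9.02 to 18.8 FPKM, median 14.0, and Gadd45g was 69.1 in library 1 and 23.4 to 40.3 in the others. Clock output genes were lowest in library 3 for 6 and in library 4 for the other 6 of 12 members, where 23.4% and 21.6% of all such features were lowest. Dbp was 18.1 and 20.1 FPKM there and 23.2 to 30.1 in the rest. The 4 MHC class II genes at 1 FPKM or more, which mark antigen-presenting cells, were all highest in library 5 and lowest in library 4, beside 19.5% and 21.6% of all such features. Cd74 ran from 63.1 to 91.7 FPKM, median 79.3.

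**Figure D5:**
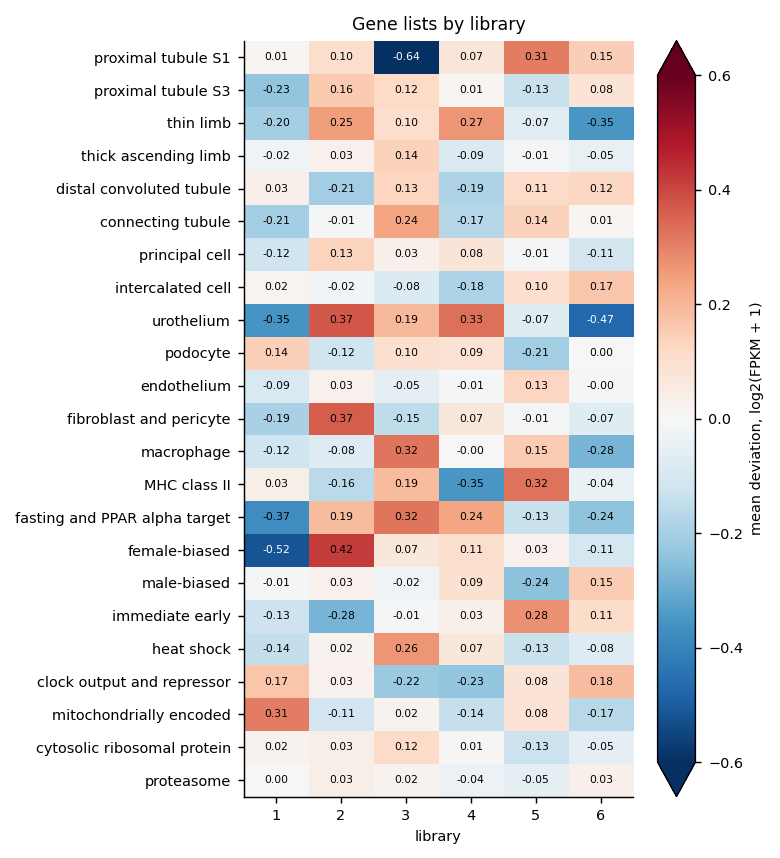
Mean deviation of log2(FPKM + 1) from each gene's own mean over the 6 libraries, averaged over the members of each list averaging at least 1 FPKM, with libraries in columns (red higher, blue lower, colours saturating at 0.6). The S1 list is at -0.64 in library 3, mitochondrially encoded genes at 0.31 in library 1, and proteasome genes between -0.05 and 0.03.

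Relations between lists across the 6 libraries were tested for 10 pairs, on the mean log2(FPKM + 1) of the members averaging 1 FPKM, with two-sided exact permutation tests. None passed an adjusted p of 0.05, and 1 of 10 had an unadjusted p under 0.05. The strongest was that of fasting and PPAR alpha targets with fatty acid oxidation, at Pearson's r = 0.88 (exact p = 0.0472, adjusted p = 0.38) and Spearman's rho = 0.77 (exact p = 0.103, adjusted p = 0.806), and the lists share Cpt1a and Ehhadh. Without libraries 1 and 3, the 2 farthest from the median of the first list, r was 0.85. Mitochondrially encoded and proximal tubule genes had r = -0.70 (exact p = 0.107, adjusted p = 0.38). S1 and S3 markers had r = -0.36 (exact p = 0.529, adjusted p = 0.882), which turned to 0.86 without libraries 3 and 5. Leaving out 2 libraries in the same way took mitochondrially encoded with ribosomal protein genes from 0.04 to 0.96, thick ascending limb with principal cell markers from 0.22 to 0.95 and immediate early with heat shock genes from -0.23 to 0.15, so these values rest on the libraries left out. No exact p below 0.00278 is possible with 6 libraries.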

How the data were processed

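Kidney RNA was sequenced after TruSeq library preparation, per the labels' protocols. The deposited table gives FPKM values that the authors computed for each feature and library. The submitters' processing notes name Bowtie 0.12.2 and the mouse builds mm8 and mm9 with no role. Which program made the FPKM, with what annotation and whether by strand, is not given in the sources used here. Reads of overlapping, antisense and near-identical genes may have been shared between entries. The values do not give the number of reads, so depth, and with it the precision of each value, is unknown.

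The 6 columns named for the wild-type saline group were used as deposited, by sample title. Of 22036 Ensembl IDs, 22022 were found in the symbol table. Shares are summed FPKM of a list over all features. Spread is the SD of log2(FPKM + 1), with a pseudocount of 1, for features averaging at least 5 FPKM, and its ratio to the median SD of the 200 nearest in mean. Single libraries were called apart by Dixon's ratio on the same log2 scale. List pairs were tested with exact permutation (720 orders, scipy 1.17.1) and Benjamini-Hochberg adjustment over 10 pairs. Python 3.11.15, numpy 2.4.6 and pandas 2.3.3 were used, and the spread and gap steps were tested on artificial data with known answers. Alternatives were other denominators, floors, pseudocounts, scalings and measures of spread, and leaving out each library in turn.

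The members, 44 marker and function lists and 23 symbol families were chosen with earlier results of these data known. Genes named were the 30 most abundant nuclear genes, the mitochondrially encoded genes, up to 6 of the highest genes of each list, all members of the oxalate, clock, sex-biased and inflammasome lists, Nlrp3, and the named genes of largest (25 by each measure) and smallest (15) spread. Lrp2, Cubn, Slc22a6, Lcn2, Havcr1, Rps27, Rps27rt and the highest added model were named after their values were seen, as were the grouping of the widest genes, the limit of 2 on the SD ratio, the promoters shown and the letters searched. Promoters are from RefSeq on GRCm38.p6, which is not the authors' build, and no other coordinates are given. A promoter entry was found for 11 of the 15 liver genes and all 4 globins. A few genes that the rule would name are not reported here.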

Additional observations from a re-analysis of the deposited data

Results flagged for a closer look

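Of the 131 genes named and 67 lists and families summed, 10 genes and 4 lists had 1 library apart from the other 5. The limit was Dixon's for 6 values, where chance alone gives about 1 in 20. Of all 11868 features averaging at least 1 FPKM, 6.1% passed it. Some of the genes were named for their spread over the same values, so their count does not test for an excess. Library 1 was high for mt-Nd6 at 8769 FPKM, against at most 6688 in the others. Library 3 was low for Slc6a19 at 35.2 FPKM and for Drg1 at 22.4 FPKM. It was high for Mup14, a major urinary protein, at 27.3 FPKM against at most 2.08 elsewhere. It was also high for Clu, at 180.4 FPKM against at most 124. Library 4 was low for Ttr at 28.8 FPKM and for Ccni at 93.7 FPKM. Library 6 was low for Spp1 at 342 FPKM, and library 5 for the ribosomal protein gene Rplp0 at 366 FPKM. Library 2 was high for Agxt at 0.255 FPKM, a level at which few reads can set the value.

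Among lists, the claudins, which seal the junctions between tubule cells, had their lowest share in library 1 at 0.0579% of FPKM, against 0.0676% to 0.0736% in the others. The remaining 3 lists stand for tissues with no member averaging 1 FPKM. The adrenal list was highest in library 5 at 0.000334%, the pancreas list was above 0 in library 4 alone at 9.35e-06%, and the skeletal muscle list was at 0 in library 6.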

How the results depend on the processing

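The proximal tubule share of 6.77% was 9.62% without mitochondrially encoded genes in the total and 2.57% without Kap, the most abundant member. The mitochondrial share of 29.6% was 24.3% without mt-Co1. The 11157 features at 1 FPKM or more in every library became 6832 at 5 FPKM. The 725 features with an SD at least 2 times that of like mean became 1159 with a floor of 1 FPKM and 288 with a floor of 20 FPKM, since more or fewer features were tested. Over the 67 lists and families, 58 of 66 shares moved by more than their SD without mitochondrially encoded genes, 57 of 67 without the most abundant member and 1 of 67 without the added models. Leaving out 1 of 6 libraries cannot move a mean by as much as its SD, so that setting was read by the size of the move. The adipose share of 0.00963% was 0.00456% without replicate 4, the major urinary protein share of 0.0123% was 0.00566% without replicate 3, and the pancreas list was at 0 without replicate 4. No other share moved by over 1.5 times. Of the 27 genes of largest spread, 8 averaged 20 FPKM or more and were among the 50 largest with that floor. Without replicate 3, 23 of the 27 were among the 50 largest, and 25 were without replicate 2 or replicate 4. The 10 list relations stayed above an adjusted p of 0.05 in exact permutation tests with median-ratio scaling (smallest 0.19) and with summed FPKM (smallest 0.29). The sign of r changed for 1 of the 10 in each of these settings. For mitochondrially encoded and proximal tubule genes, r went from -0.70 to -0.16 with summed FPKM. For proximal tubule and thick ascending limb genes, it went from -0.57 to -0.84 with median-ratio scaling and to 0.09 with summed FPKM.

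No paired analysis was possible because no groups were compared. The limits are these. FPKM without read counts gives no counting error,. Shares sum to a whole, so the mitochondrial share moves all others. The 6 libraries cannot separate tissue taken with a sample, the zone of kidney taken and the state of the animal. Single values of near-identical genes are uncertain.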

Other observations

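Other groups of genes held values that belong to no comparison above. Jchain, the joining chain of antibodies made by plasma cells, ran from 0.211 to 5.03 FPKM and made up 75.0% of the B and plasma cell list. Ifi27l2a, an interferon-induced gene, was 24.7 FPKM in library 4 with a median of 5.66. The interferon response list did not go with it. Of its 19 genes averaging 1 FPKM, 1 was highest and 8 were lowest in library 4. Of all features averaging 1 FPKM, 10.9% were highest and 21.6% lowest there. Cryab, a small heat shock protein, ran from 73.7 through 104 to 156 FPKM, and 7 of the 13 heat shock genes were highest in library 3, beside 15.6% of all features averaging 1 FPKM. Of the 13 injury genes averaging 1 FPKM, 9 were lowest in library 6, beside 10.8% of all such features. Collagen genes were low as a family, at 0.0268% ± 0.00276 of FPKM (SD, n = 6), with Col18a1 the highest.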
